A study of Mus musculus with 12 samples.

Results

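Myc, its dimerization partner Max and the genes that oppose Myc were followed in RNA sequencing of 12 mammary tumors from 9 female mice. The members were chosen by symbol, and all 10 of them were found among the 47593 genes of the deposited table. They were the Myc family genes Myc, Mycn and Mycl, the shared partner Max, and the antagonists Mxd1, Mxd3, Mxd4, Mxi1, Mnt and Mga. Every member reached a mean TPM of at least 1 over mice, as did 16802 genes in all. TPM counts a gene's transcripts relative to all transcripts of a tumor, after division by gene length, so levels of different genes can be set side by side.

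All tumors belonged to 1 condition. The mice carried MADM RG;GR alleles on a mixed background, as the labels name them (the methods of the study call the cassettes MADM-TG and MADM-GT), and an MMTV-Cre transgene, which drives recombination mainly in mammary epithelial cells, and were not treated. MADM (mosaic analysis with double markers) makes rare GFP+ cells that lack Brca1 and p53 among cells that are heterozygous for both, so a piece of tumor holds mutant cells together with host cells of other genotypes. The age of each mouse is not given in the sources used here. Tumors 3 and 4 came from 1 mouse and tumors 10, 11 and 12 from another, and the other 7 mice gave 1 tumor each. There was no normal gland and no treated group, so levels were compared between genes and between tumors. Tumors of 1 mouse were averaged before any error or test, which gives n = 9 mice. In such bulk samples, fewer cells of a type and less RNA per cell cannot be told apart.

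Myc, Mycn and Mycl are transcription factors of the basic helix-loop-helix leucine zipper class. Each binds DNA as a dimer with Max, most often at the E-box CACGTG, and activates genes of ribosome production, nucleotide synthesis and cell division. Mxd1, Mxd3, Mxd4, Mxi1 and Mnt compete for Max, bind the same E-box and recruit the Sin3 corepressor, and most of the Mxd genes are known for their expression in cells that leave the cycle, with Mxd3 described in cycling cells. Mga also dimerizes with Max and is part of a Polycomb complex that silences germline genes. The MYC gene is often gained or overexpressed in basal-like human breast cancer.

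The letters CACGTG, which read the same on both strands, were searched in the promoters of the members, taken as 250 bases before to 50 bases after each start in RefSeq (build GRCm38.p6). Of the 10 members, 9 matched an entry, and Myc did not. The motif was found in 3 of the 9, namely Max, Mxd4 and Mnt, and in 8.09% of all 27025 genes with a promoter in that table. These 3 stretches are shown because the network's own dimers bind these letters, and because Max and Mxd4 were the members with the most abundant RNA beside Myc. The E-box is in capitals, with up to 60 bases on either side of it, cut short where the 250 bases before the start begin (Mxd4) or where the motif reaches the start (Max).

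Max, chr12:76962246-76962311, minus strand: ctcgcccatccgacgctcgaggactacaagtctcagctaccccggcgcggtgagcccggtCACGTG
Mxd4, chr5:34187864-34187960, minus strand: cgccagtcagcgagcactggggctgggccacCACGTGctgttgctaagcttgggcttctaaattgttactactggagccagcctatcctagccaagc
Mnt, chr11:74830741-74830866, plus strand: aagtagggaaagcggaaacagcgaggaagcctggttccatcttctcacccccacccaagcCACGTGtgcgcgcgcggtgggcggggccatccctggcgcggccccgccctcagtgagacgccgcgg

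In Max the motif began 3 bases before the start and ran across it, in Mnt it began 123 bases before the start, and in Mxd4 it began 219 bases before. Among genes listed as activated by Myc, the motif was found in 6 of 23 ribosome biogenesis genes, 3 of 10 nucleotide and polyamine genes and 5 of 11 other genes with a promoter in the table. It was found in 0 of 6 genes listed as repressed by Myc. A match describes these letters only, and no binding was measured.

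Myc was the member with the highest mean level on the log scale, and it was listed in every tumor. Myc (ENSMUSG00000022346, chr15:61985391-61990374 on the plus strand of GRCm38) averaged 82.4 ± 37.4 TPM (SD, n = 9 mice). Its level was 71.9 TPM in tumor 1, 146 TPM in tumor 2, 66.6 TPM in tumor 3, 62.6 TPM in tumor 4, 79.1 TPM in tumor 5, 94.6 TPM in tumor 6, 88.2 TPM in tumor 7, 53.7 TPM in tumor 8, 19.4 TPM in tumor 9, 83.2 TPM in tumor 10, 123 TPM in tumor 11 and 168 TPM in tumor 12. Tumor 9 stood below all others, and tumors 2, 11 and 12 stood at the top. The 3 tumors at 83.2, 123 and 168 TPM came from 1 mouse, so Myc varied between sister tumors as well.

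Mycl was a minor family member except in tumor 9. Mycl (ENSMUSG00000028654, chr4:122995652-123002485 on the plus strand), a family member first found in lung cancer, averaged 6.76 ± 7.78 TPM (SD, n = 9 mice). Its level was 4.39 TPM in tumor 1, 0.034 TPM in tumor 2, 6.05 TPM in tumor 3, 5.11 TPM in tumor 4, 17.0 TPM in tumor 5, 1.15 TPM in tumor 6, 3.74 TPM in tumor 7, 1.68 TPM in tumor 8, 22.8 TPM in tumor 9, 8.87 TPM in tumor 10, 3.40 TPM in tumor 11 and 1.37 TPM in tumor 12. Tumors 9 and 5 were the highest, and tumor 2, at close to 0, was the lowest. In tumor 9, Mycl stood above Myc, with a Mycl to Myc ratio of 1.17, while the next highest ratio was 0.214 in tumor 5.

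Mycn was the lowest member. Mycn (ENSMUSG00000037169, chr12:12936093-12941914 on the minus strand), the family member known from neuroblastoma and from embryonic tissue, averaged 1.06 ± 1.48 TPM (SD, n = 9 mice). It was listed at 0 in tumors 2 and 6, and reached 4.53 TPM in tumor 9, 2.20 TPM in tumor 1 and 1.47 TPM in tumor 3, with a median of 0.527 TPM over the 12 tumors. Only those 3 tumors had 1 TPM or more, and the mean over mice reached 1 TPM only through tumor 9. Because TPM keeps no record of reads, a level listed at 0 has no counting interval.

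The 3 family members therefore made up different mixtures. Myc was 41.6% of the summed TPM of Myc, Mycl and Mycn in tumor 9, 82.0% in tumor 5, and 93.7% at the median tumor. The sum itself was lowest in tumor 9 at 46.7 TPM, next lowest in tumor 8 at 55.7 TPM, and highest in tumor 12 at 170 TPM, with a median of 92.6 TPM. In tumor 9, Mycl contributed 48.7% and Mycn 9.69%, the highest share of either in any tumor.

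**Figure D1:**
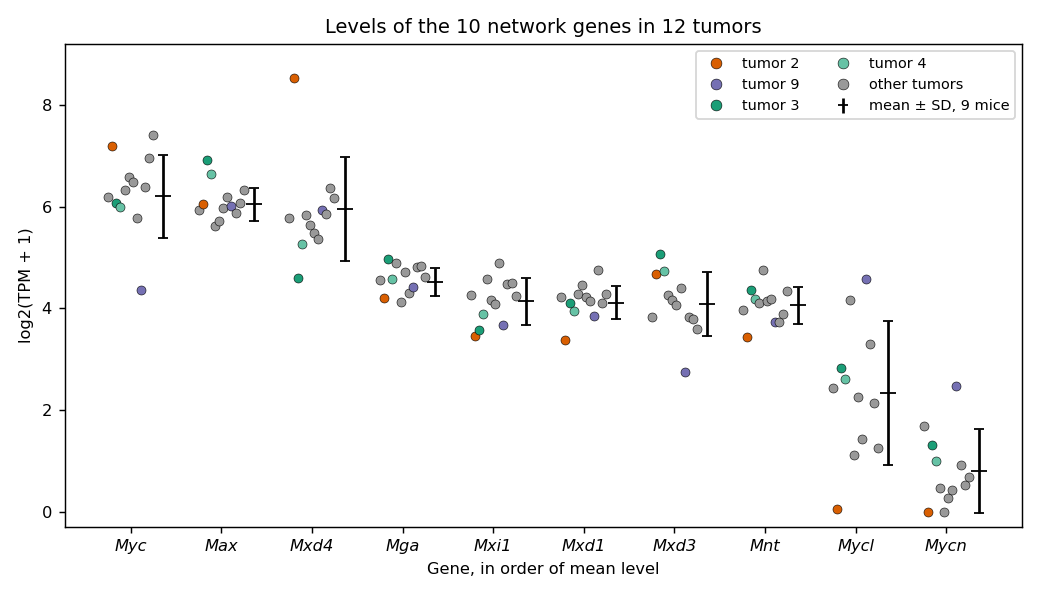
Levels of the 10 genes as log2(TPM + 1), one point per tumor, in order of mean level, with the mean and SD over 9 mice to the right of each group of points. Tumor 2 is highest in Mxd4 and lowest or joint lowest in Mycl, Mycn, Mxd1, Mxi1 and Mnt, tumor 9 is lowest in Myc and Mxd3 and highest in Mycl and Mycn, and tumors 3 and 4 are highest in Max and Mxd3. Over all expressed genes, tumor 2 is the highest or lowest tumor in 49.6%, and tumor 9 is the lowest in 20.6% and the highest in 14.2%.

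Max, the shared partner of Myc and its antagonists, varied little outside 1 mouse. Max (ENSMUSG00000059436, chr12:76937269-76962201 on the minus strand) averaged 66.7 ± 17.6 TPM (SD, n = 9 mice). Its level was 60.3 TPM in tumor 1, 65.6 TPM in tumor 2, 120 TPM in tumor 3, 98.4 TPM in tumor 4, 48.2 TPM in tumor 5, 51.9 TPM in tumor 6, 61.4 TPM in tumor 7, 72.2 TPM in tumor 8, 63.8 TPM in tumor 9, 57.8 TPM in tumor 10, 66.3 TPM in tumor 11 and 79.5 TPM in tumor 12. The 2 sister tumors 3 and 4 were the highest, and the other 10 tumors lay between 48.2 and 79.5 TPM. The ratio of Myc to Max was above 1 in tumors 1, 2, 5, 6, 7, 10, 11 and 12, up to 2.22 in tumor 2, and was lowest in tumor 9 at 0.304.

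Mxd4 was the most abundant antagonist and, because of tumor 2, the one with the widest range. Mxd4 (ENSMUSG00000037235, chr5:34173883-34187720 on the minus strand), a repressor of the Mad group, averaged 85.6 ± 107 TPM (SD, n = 9 mice). Its level was 54.1 TPM in tumor 1, 368 TPM in tumor 2, 23.0 TPM in tumor 3, 37.2 TPM in tumor 4, 56.1 TPM in tumor 5, 48.7 TPM in tumor 6, 43.7 TPM in tumor 7, 40.0 TPM in tumor 8, 60.1 TPM in tumor 9, 56.8 TPM in tumor 10, 81.7 TPM in tumor 11 and 70.8 TPM in tumor 12. Tumor 2 stood far above the others, and without it the mean over 8 mice was 50.3 ± 12.4 TPM and the range 23.0 to 81.7 TPM, a narrower one in proportion than that of Mxd3 (5.69 to 32.4 TPM). Mxd4 was the highest of the 6 antagonists in 11 of the 12 tumors, and Mxd3 was the highest in tumor 3.

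Mxd3 ran from 5.69 TPM in tumor 9 to 32.4 TPM in tumor 3, with a median of 16.3 TPM. Mxd3 (ENSMUSG00000021485, chr13:55325168-55329823 on the minus strand) averaged 17.3 ± 6.84 TPM (SD, n = 9 mice). Tumors 3 and 4, at 32.4 and 25.5 TPM, and tumor 2, at 24.5 TPM, were the highest. Mxd1, Mxi1, Mnt and Mga differed less between tumors.

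Mxd1 (ENSMUSG00000001156, chr6:86647042-86669161 on the minus strand), known for its rise when cells differentiate, averaged 16.7 ± 3.56 TPM (SD, n = 9 mice), from 9.42 TPM in tumor 2 to 25.9 TPM in tumor 10. Mxi1 (ENSMUSG00000025025, chr19:53310518-53375810 on the plus strand), known as a target of hypoxia signaling, averaged 17.4 ± 5.90 TPM (SD, n = 9 mice), from 10.0 TPM in tumor 2 to 28.5 TPM in tumor 8. Tumor 2 was the lowest in both genes. Mnt (ENSMUSG00000000282, chr11:74830920-74845725 on the plus strand), the widely expressed antagonist, averaged 16.2 ± 4.46 TPM (SD, n = 9 mice), from 9.76 TPM in tumor 2 to 25.8 TPM in tumor 6. Mga (ENSMUSG00000033943, chr2:119897228-119969581 on the plus strand) averaged 22.4 ± 4.41 TPM (SD, n = 9 mice), from 16.4 TPM in tumor 6 to 30.3 TPM in tumor 3, and was the steadiest member, with a highest to lowest ratio of 1.85.

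**Figure D2:**
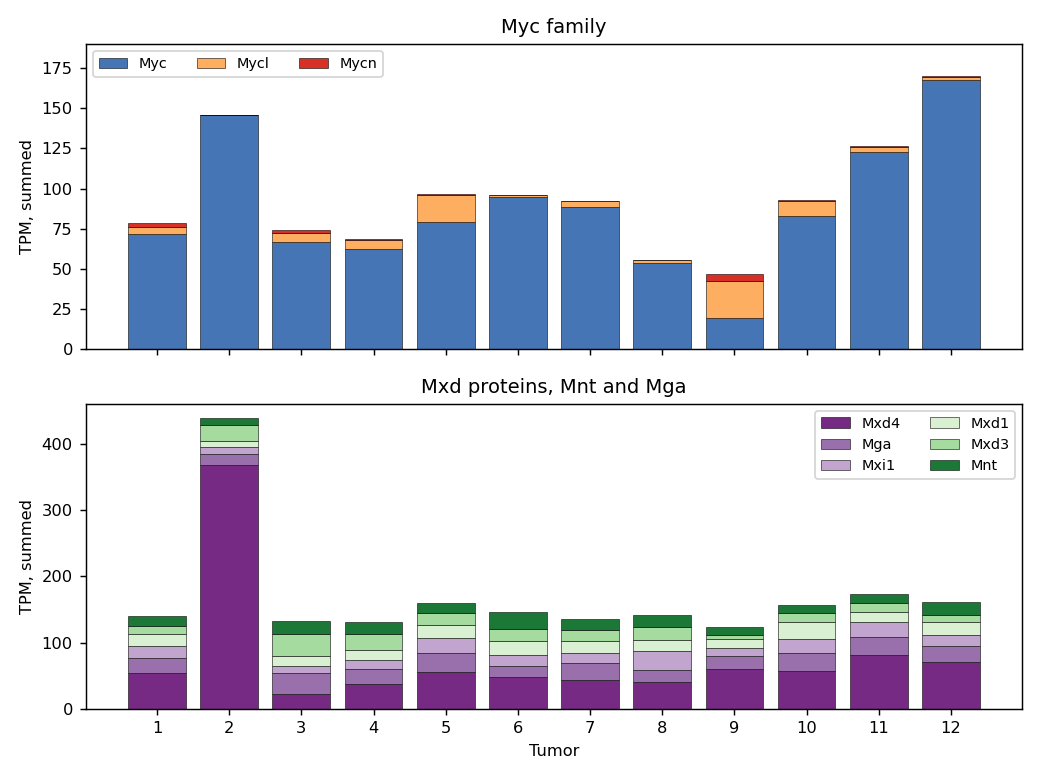
Summed TPM of the Myc family (upper panel) and of the 6 antagonists (lower panel) in each tumor, with bars divided by gene. The family sum is mostly Myc except in tumor 9, where Myc is 41.6% of it, and the antagonist sum is 439 TPM in tumor 2 with 83.8% from Mxd4, against at most 173 TPM elsewhere.

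The summed antagonists reached 439 TPM in tumor 2 and stayed at 123 to 173 TPM elsewhere. Mxd4 took 83.8% of that sum in tumor 2 and 17.4% in tumor 3. The ratio of the Myc family sum to the antagonist sum had a median of 0.577, was lowest in tumor 2 at 0.332, and passed 1 only in tumor 12, at 1.05. Tumor 2 thus had the second highest Myc level and the lowest ratio of the family to its antagonists. With Mxd4 left out of the antagonists, the ratio in tumor 2 was 2.04, the highest of the 12. These sums compare RNA per length and say nothing of protein.

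The order of the mean log2(TPM + 1) over mice was Myc at 6.20, Max at 6.04, Mxd4 at 5.96, Mga at 4.52, Mxi1 at 4.14, Mxd1 at 4.11, Mxd3 at 4.08, Mnt at 4.06, Mycl at 2.33 and Mycn at 0.80. Neighbors in this order were compared within mice by a two-sided exact sign-flip permutation test, with Benjamini-Hochberg adjustment over all 45 pairs. The smallest p that 9 mice allow is 0.0039. Of the 45 pairs, 34 had a mean difference with an adjusted p under 0.05, and 11 did not. The test asks whether the mean paired difference is 0, not whether it is larger than the spread between mice.

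The first 3 genes in the order were not separated from each other. Myc and Max differed by 0.16 ± 0.92 (SD of the difference, log2, Myc higher in 6 of 9 mice; adjusted p = 0.694, exact permutation), and Max and Mxd4 by 0.087 ± 1.15 (Max higher in 6 of 9 mice; adjusted p = 0.849, exact permutation). Mxd4 was above Mga in 9 of 9 mice, by 1.43 ± 1.16 (adjusted p = 0.0070, exact permutation). These spreads would allow sizable differences in either direction among these 3 genes.

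Mga was above Mxi1 by 0.39 ± 0.49 in 7 of 9 mice and missed the threshold (adjusted p = 0.0552, exact permutation), while without the mouse of tumor 8 the difference of 0.51 passed it. Mxi1, Mxd1, Mxd3 and Mnt stood within 0.074 of each other, and no pair of them passed the threshold. Mnt was above Mycl by 1.74 ± 1.47 in 7 of 9 mice (adjusted p = 0.0220, exact permutation), and without tumors 2 and 8, chosen after seeing the data, the difference was 1.35 and no longer passed (adjusted p = 0.0827, exact permutation). Mycl was above Mycn by 1.53 ± 1.03 in 9 of 9 mice (adjusted p = 0.0070, exact permutation). Taken tumor by tumor, Myc ranked first of the 10 genes in 7 tumors, Max in 4 and Mxd4 in 1.

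**Figure D3:**
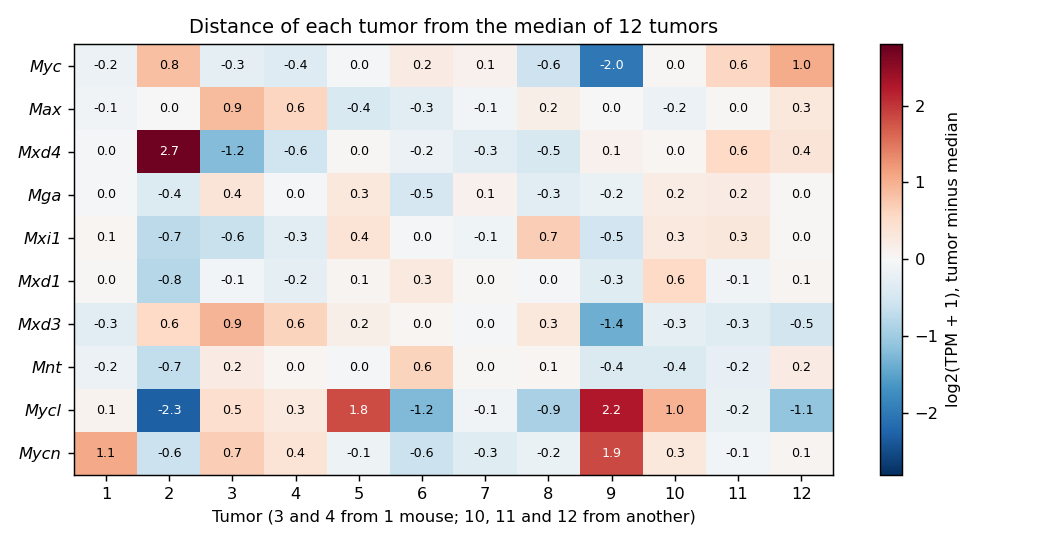
Distance of each tumor from the median of the 12 tumors for every gene, in log2(TPM + 1) units, with red above and blue below the median. Tumor 2 differs in Mxd4 at +2.7 and Mycl at -2.3, tumor 9 in Myc at -2.0, Mxd3 at -1.4, Mycl at +2.2 and Mycn at +1.9, and Mga stays within 0.5 in every tumor.

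The spread of the members between mice was ordinary for expressed genes. The median SD over the 10 members was 0.54 on the log2 scale, beside 0.57 over the 16802 expressed genes. Mycl had a larger SD than 89.7% of expressed genes, Mxd4 than 78.7%, Mycn than 69.9% and Myc than 69.4%. Mga had a larger SD than 6.95%, Mxd1 than 14.2%, Max than 14.3% and Mnt than 20.2%. Sister tumors differed less than tumors of different mice in 9 of the 10 members, Mxd1 being the exception, and in 91.5% of expressed genes. Myc differed by 0.52 on average within a mouse (4 pairs of tumors) and by 0.88 between mice (62 pairs).

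Tumors 2 and 8, labelled as mammary tumors like the others, had low epithelial markers. The 7 epithelial markers had a median of 0.262 TPM in tumor 2 and 3.00 TPM in tumor 8, whereas the other 10 had medians from 320 to 597 TPM. Within this list, Krt8 and Krt18 stood at 128 and 16.2 TPM in tumor 8, and at 0.33 and 0.54 TPM in tumor 2. In tumor 2, the 6 B-lineage markers had a median of 556 TPM, with Cd79a at 609 TPM, while Epcam was listed at 0 and Krt8 stood at 0.33 TPM. Of the 6, Ms4a1 was low in tumor 2, at 2.18 TPM, below tumor 9 at 11.7 TPM. B-lineage medians in tumors other than tumor 2 were at most 1.64 TPM, except for 29.3 TPM in tumor 9. Tumor 8 had the highest macrophage median, at 220 TPM, and a fibroblast median of 333 TPM, below tumor 4 alone, with the fibroblast genes Dcn at 1732 TPM and Pdgfra at 111 TPM. The medians of the other marker lists ranged over tumors from 0.411 to 14.2 TPM for T lymphocytes, 30.5 to 220 TPM for macrophages, 7.08 to 442 TPM for fibroblasts, 0.416 to 9.05 TPM for myoepithelium and 0 to 32.7 TPM for adipocytes. The high Mxd4 and low Mycl, Mxd1, Mxi1 and Mnt of tumor 2 thus stood beside B-lineage genes in place of epithelial ones, and the high Mxi1 of tumor 8 beside macrophage and fibroblast genes, and the part of cell type in these levels was not tested. Tumor 2 was the highest or lowest tumor in 49.6% of all expressed genes.

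The next comparison asked which genes followed Myc from tumor to tumor. For every expressed gene, limma estimated the slope of its log2(TPM + 1) on that of Myc over 9 mice, in log2 units of the gene per log2 unit of Myc. Of 16801 genes tested, 6 passed an adjusted p under 0.05 (0.0357%), all with a negative slope, and 0 of the 9 other members did. The number depended on single mice. It was 0 without the mouse of tumor 9, of tumors 3 and 4, of tumor 5 or of tumor 6, 1 without tumor 7, 3 without tumor 1, 54 without tumors 10, 11 and 12, 247 without tumor 8, 332 without tumor 2 and 812 without tumors 2 and 8 (chosen after seeing the data). With an exact permutation of the pairings in place of limma it was 0 (2162 genes at an unadjusted p under 0.05).

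The other family members had negative slopes on Myc. Mycn passed the filter of a mean of 1 TPM only through tumor 9, the tumor lowest in Myc, so its values here are a description only. Mycn had a slope of -0.81 ± 0.23 (SE; adjusted p = 0.128, limma) and Mycl of -1.20 ± 0.42 (adjusted p = 0.207, limma), and these 2 were the members with an unadjusted p under 0.05. At that level 8.49% of all genes had a negative slope and 7.43% a positive one. Pearson's r with Myc was -0.80 for Mycn (exact permutation p = 0.0139, Spearman's rho -0.67, p = 0.0550) and -0.69 for Mycl (exact permutation p = 0.0375, rho -0.67, p = 0.0589). Without tumors 9 and 2, the 2 mice farthest from the median of Myc, r was -0.27 for Mycn and -0.0055 for Mycl, so both relations rest on those mice.

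Max, Mxd1, Mxi1, Mnt and Mga had slopes on Myc between -0.053 and 0.035. Their r with Myc lay between -0.13 and 0.062, with exact permutation p-values from 0.690 to 0.944 over 9 mice, and rho between -0.20 and 0.32. The 95% interval of the slope reached from -0.43 to 0.33 for Max and from -0.34 to 0.36 for Mga, both well below a slope of 1, at which a gene keeps a constant ratio to Myc. Mxd3 had a slope of 0.48 (95% interval -0.010 to 0.98, r = 0.63, rho = 0.10, exact permutation p = 0.0898) and Mxd4 of 0.54 (95% interval -0.32 to 1.40, r = 0.43, rho = 0.50, exact permutation p = 0.184). The Mxd4 slope was 0.0052 without tumor 2 and 1.89 without tumor 9 (adjusted p = 0.254, limma), and the Mxd3 slope was -0.13 without tumor 9. Mxd1 also depended on tumor 2, without which its slope was 0.22 (adjusted p = 0.325, limma) and its r 0.88 (unadjusted exact permutation p = 0.0028), while without tumor 9 its r was -0.38. Without tumors 9 and 2, r was -0.65 for Mxd3, 0.70 for Mxd4 and 0.77 for Mxd1 (unadjusted exact permutation p = 0.0440 for Mxd1). None of the 9 members had an adjusted p under 0.05 in limma over all genes, where the adjusted p-values were 0.128 or more.

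**Figure D4:**
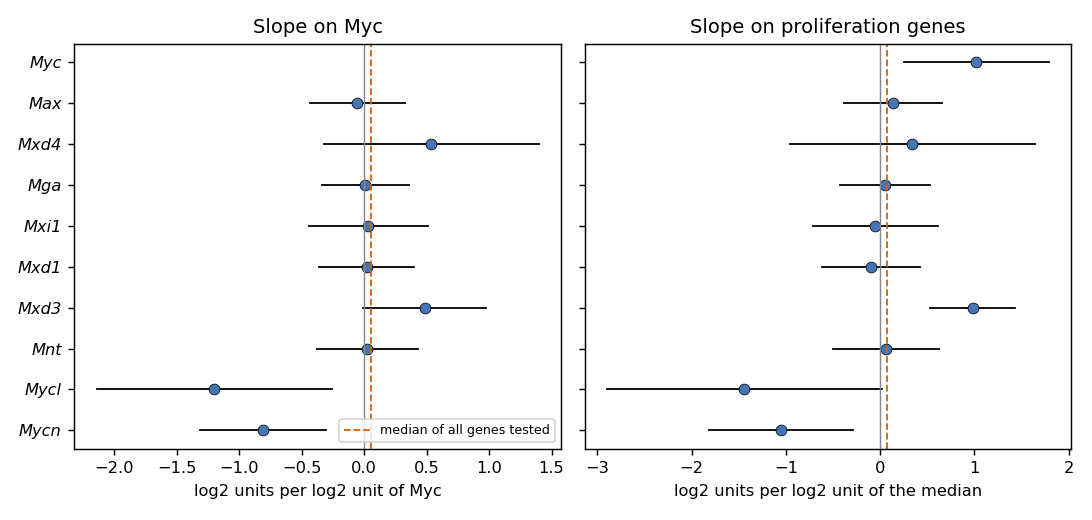
Slope of each gene on Myc (left) and on the median of 21 proliferation genes (right) over 9 mice, with 95% intervals from limma, in log2 units per log2 unit, and the median slope of all genes tested as a dashed line. Mycl and Mycn lie at -1.20 and -0.81 on Myc, and Mxd3 at 0.98 and Myc at 1.02 on the proliferation genes, and no gene shown passed an adjusted p under 0.05.

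Genes known as targets of Myc were read from lists, beside all genes. Of the 28 ribosome biogenesis genes, 27 had a positive slope on Myc and 12 had an unadjusted p under 0.05, with a median slope of 0.35, beside a median of 0.05 over all genes, 9435 of which were positive. Npm1, a nucleolar histone chaperone, had a slope of 0.59 ± 0.23 (SE, n = 9 mice) with 360 TPM in tumor 9 and 1663 TPM in tumor 2. Ncl, the nucleolar protein nucleolin, had a slope of 0.58 ± 0.21, and Nop56, a core protein of box C/D particles, of 0.67 ± 0.18. In all 3 genes tumor 9 was the lowest tumor.

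All 12 nucleotide and polyamine genes had a positive slope on Myc and 6 had an unadjusted p under 0.05, with a median slope of 0.51. Paics, an enzyme of purine synthesis, had a slope of 0.66 ± 0.23 (SE), Odc1, the first enzyme of polyamine synthesis, of 0.57 ± 0.29, and Impdh2, of guanine nucleotide synthesis, of 0.52 ± 0.17. Of 12 other activated genes, 11 had a positive slope and 6 had an unadjusted p under 0.05, with Ptma at 0.32 ± 0.18, the lactate dehydrogenase gene Ldha at 0.59 ± 0.23 and the chaperonin gene Hspd1 at 0.52 ± 0.20. None of these 52 genes passed the adjusted p. The proliferation genes and cell type markers were read in the same fit. All 21 proliferation genes had a positive slope on Myc, with a median of 0.63, and 16 had an unadjusted p under 0.05. Without tumor 9, 15 of the 21 were positive and 0 of these had an unadjusted p under 0.05. All 5 T-lymphocyte markers had a negative slope, with a median of -1.11, and 4 had an unadjusted p under 0.05. The epithelial, macrophage, fibroblast and adipocyte markers tested were also all negative, with medians of -0.96, -0.71, -0.56 and -0.90 and 1 gene in all, a macrophage marker, at an unadjusted p under 0.05. Of the B-lineage markers 5 of 6, and of the myoepithelial markers 4 of 5, were positive, with medians of 0.12 and 0.065. Each of these 2 lists had 1 gene at an unadjusted p under 0.05, the negative one. These were Ms4a1 at -0.95 ± 0.36 (SE) and Myh11 at -2.45 ± 0.50. The part of these cells and of proliferation in the slopes of the target lists was not tested.

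Of the 8 genes listed as repressed by Myc, 7 had a negative slope and 3 of them an unadjusted p under 0.05. These 3 were the most abundant of the list: the secreted chaperone gene Clu at -2.84 ± 0.89 (SE), Gadd45a, a growth arrest gene, at -1.31 ± 0.38, and the stress gene Ndrg1 at -0.64 ± 0.18. All 3 were highest in tumor 9, as were 14.2% of all expressed genes. There Clu reached 13730 TPM, Gadd45a 857 TPM and Ndrg1 614 TPM. Their lowest tumor was tumor 2 for Clu and Ndrg1 and tumor 3 for Gadd45a. None passed the adjusted p.

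The counts of the 3 activated lists depended on tumor 9. Without its mouse, 16 of 28 ribosome biogenesis genes, 8 of 12 nucleotide and polyamine genes and 8 of 12 other activated genes had a positive slope, with 0, 2 and 1 at an unadjusted p under 0.05, beside 7631 of all 16801 genes with a positive slope, of which 1073 had an unadjusted p under 0.05. The median slope of all genes was then -0.07. Of the 8 repressed genes, 2 had a positive slope without tumor 9 and 4 had a negative slope with an unadjusted p under 0.05, as 1777 of all genes had. Tumor 9 was the lowest of the 12 tumors in 20.6% of all expressed genes. Without tumors 2 and 8 instead, 28 of 28, 12 of 12 and 9 of 12 were positive. The median slope of all 16801 genes was then 0.090, and 3976 of them had an unadjusted p under 0.05 in either direction. Tumor 9 also had the highest median of the 5 T-lymphocyte markers, at 14.2 TPM. Of the 5 myoepithelial markers, Myh11 stood at 250 TPM in tumor 9 and at most 3.44 TPM elsewhere, whereas Acta2 was lowest in tumor 9 at 22.2 TPM, and Cnn1, Trp63 and Oxtr were at 1.04, 0.299 and 1.37 TPM. The part of cell type in the levels of tumor 9 was not tested.

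Cofactors of Myc and of its antagonists, and regulators of Myc stability, were read the same way, beside 56.2% of all genes with a positive slope. Of the 8 corepressor genes, 4 had a positive slope and 1 an unadjusted p under 0.05, which 7.43% of all genes had with a positive slope. The 3 most abundant, Rbbp7, Sin3b and Hdac1, had 226 ± 50.0, 204 ± 89.8 and 125 ± 14.3 TPM (SD, n = 9 mice), and Sin3b, a scaffold that the Mxd proteins bind, was highest in tumor 8 at 399 TPM, the tumor with the highest macrophage median. Of the 9 coactivator genes, 6 had a positive slope and 2 an unadjusted p under 0.05. These 2 were Ruvbl1, an ATPase of chromatin complexes (slope 0.48 ± 0.14, SE), and Wdr5, a Myc-binding scaffold (slope 0.44 ± 0.16), while Ruvbl2 had a slope of 0.23 ± 0.17. Of the 8 stability genes found, 5 had a positive slope and 1 an unadjusted p under 0.05, and the 3 most abundant were Ppp2r5a, highest in tumor 2 at 211 TPM, Huwe1 and Aurka, with slopes of 0.24 ± 0.27, -0.16 ± 0.12 and 0.52 ± 0.27. Without tumor 9, 3 of 8 corepressor, 5 of 9 coactivator and 3 of 8 stability genes had a positive slope, with 1, 0 and 0 of these at an unadjusted p under 0.05, beside 45.4% of all genes with a positive slope.

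Among relatives of the network, Mlx had 51.2 ± 12.3 TPM and Mlxip 36.8 ± 9.40 TPM (SD, n = 9 mice), both dimerizing regulators of the glucose response, and Mlxipl 1.25 ± 1.87 TPM. Bmyc, which resembles the amino-terminal part of Myc without its DNA-binding region, had 25.6 ± 39.5 TPM. Its level was 127 TPM in tumor 9, which was the highest tumor in 14.2% of all expressed genes, and 0.737 to 33.9 TPM elsewhere. Bmyc was thus highest where Myc was lowest. Its slope on Myc was -1.54 ± 0.51 (SE; adjusted p = 0.187, limma). Mycs was listed at 0 in all 12 tumors.

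The second slope used proliferation in place of Myc, because Myc and its antagonists are known from entry into and exit from the cell cycle. The covariate was the median log2(TPM + 1) of 21 proliferation genes such as Mki67, Birc5 and Ube2c, none of which was tested. Of 16781 genes tested by limma, 0 passed an adjusted p under 0.05 (0%). At an unadjusted p under 0.05, 8.3% of genes had a positive and 7.75% a negative slope, 2692 genes in all, and by exact permutation of Pearson's r 2327 genes did and 0 passed the adjustment.

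Mxd3 had the highest correlation with the proliferation genes among the members. Its slope was 0.98 ± 0.20 (SE; r = 0.92 over 9 mice, adjusted p = 0.110, limma), and between 0.83 and 1.11 when each mouse was left out. Myc had a slope of 1.02 ± 0.34 (adjusted p = 0.185, limma), which was 0.19 without tumor 9 and -0.40 without tumors 2 and 9 (chosen after seeing the data). Mycn, which passed the filter only through tumor 9, had a slope of -1.06 ± 0.34 (adjusted p = 0.172, limma), which was -0.56 without tumor 9. These 3 members had an unadjusted p under 0.05, and without tumor 9 Mxd3 was the 1 member that had. Mycl had a slope of -1.44 ± 0.65, which was -0.81 without tumor 9 and 0.59 without tumors 2 and 9. Mxd4 had a slope of 0.34 ± 0.58 and Max of 0.14 ± 0.23, and the slopes of Mxd1, Mxi1, Mnt and Mga lay between -0.097 and 0.059. In the median of the 21 proliferation genes tumor 9 was lowest at 13.7 TPM and tumor 2 highest at 55.2 TPM.

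The genes most like each member in pattern were taken as the 3 with the highest Pearson r over 9 mice among the 10781 genes with a mean of 10 TPM or more. They are a description without a test, and 22 of the 30 had their highest or lowest level in tumor 2, as did 51.9% of the 10781 genes. For Myc they were the chaperonin subunit gene Cct5 (r = 0.96), the mitochondrial translation gene Ptcd3 (r = 0.95) and the pseudogene Rpl3-ps2 (r = 0.94), all 3 lowest in tumor 9. Reads of Rpl3-ps2 can be shared with its parent gene, so its level is uncertain. For Mycn they were Dapk2, Madd and Irak4 (r = 0.93, 0.92 and 0.91), and for Mycl Clptm1, Dcxr and Sppl2a (r = 0.94 for each), all 6 highest in tumor 9 and lowest in tumor 2.

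For Mxd3 the most alike genes were Gm27219 (r = 0.96), the spindle assembly gene Tpx2 (r = 0.96) and Aunip (r = 0.95), all lowest in tumor 9. For Mxd4 they were Sucla2 (r = 0.98), Chst3 (r = 0.96) and the immunoglobulin heavy chain variable segment Ighv1-56 (r = 0.96), all 3 highest in tumor 2, and without tumor 2 r was 0.84, 0.64 and 0.66. For Mxd1 they were Dusp18, Junos and Eogt (r = 0.98, 0.97 and 0.97), all lowest in tumor 2. For Mxi1 they were Lamb2, Srek1 and Glipr1 (r = 0.95, 0.94 and 0.93), for Mnt the proteasome gene Psmd4 and Klf16 (r = 0.96 and 0.93), and for Mga Sec11a, Hs3st1 and Scaf1 (r = 0.96, 0.93 and 0.92).

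For Max, D17H6S53E on chromosome 17 was the most alike (r = 0.95), followed by Zfyve1 and Arel1, both on chromosome 12 as Max is (r = 0.93 and 0.92). All 3 were highest in tumor 3, and without the mouse of tumors 3 and 4 r was 0.88, 0.73 and 0.71. Since Max and these 2 genes share a chromosome, the 5 expressed genes on either side of each of Max, Myc and Mycn were read in chromosome order. The neighbors of Max were chosen after the values were seen.

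All 10 neighbors of Max, from Sptb to Eif2s1, stood above their own median of 12 tumors in both tumor 3 and tumor 4, as did 40.6% of all expressed genes. Their median distance from it was 0.98 in tumor 3 and 0.72 in tumor 4 on the log2 scale, beside 0.88 and 0.60 for Max itself. In 6 of the 10, both tumors were above all other tumors. The farnesyltransferase subunit gene Fntb had 93.1 and 72.1 TPM in tumors 3 and 4 and at most 26.3 TPM elsewhere, and the translation factor gene Eif2s1 had 137 and 120 TPM there and at most 81.2 TPM elsewhere. Over chromosome 12, both tumors were above the other 10 in 207 of 588 expressed genes (35.2%), against 1093 of 16129 genes (6.78%) on the other chromosomes. Mycn, also on chromosome 12, had 1.47 and 0.998 TPM in these tumors, below tumors 1 and 9. Around another member the same tumors stood low. All 10 neighbors of Mxd1 were below their own median in both, with median distances of -0.70 and -0.37, as were 32.8% of all expressed genes, while Mxd1 itself stood at -0.082 and -0.25. Gene copy number was not analysed here.

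The neighbors of Myc, from E430025E21Rik to Asap1, stood below their own median in tumor 9 in 9 of 10 genes, with a median distance of -1.14, and in 6 of them tumor 9 was the lowest tumor. Trib1, a pseudokinase gene, had 11.6 TPM in tumor 9 and at least 37.5 TPM elsewhere. Pvt1, the noncoding RNA gene next to Myc, had 3.15 TPM in tumor 9 and 4.69 to 17.0 TPM elsewhere. Asap1 had 13.3 TPM in tumor 9 and at least 26.4 TPM elsewhere. Tumor 9 was the lowest tumor in 28.6% of 632 expressed genes on chromosome 15 and in 20.3% of genes on other chromosomes, and it was below the median in 60.2% of all expressed genes. All 10 neighbors of Mxi1 were also below their median in tumor 9, with a median distance of -0.88, while Mxi1 stood at -0.53.

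**Figure D5:**
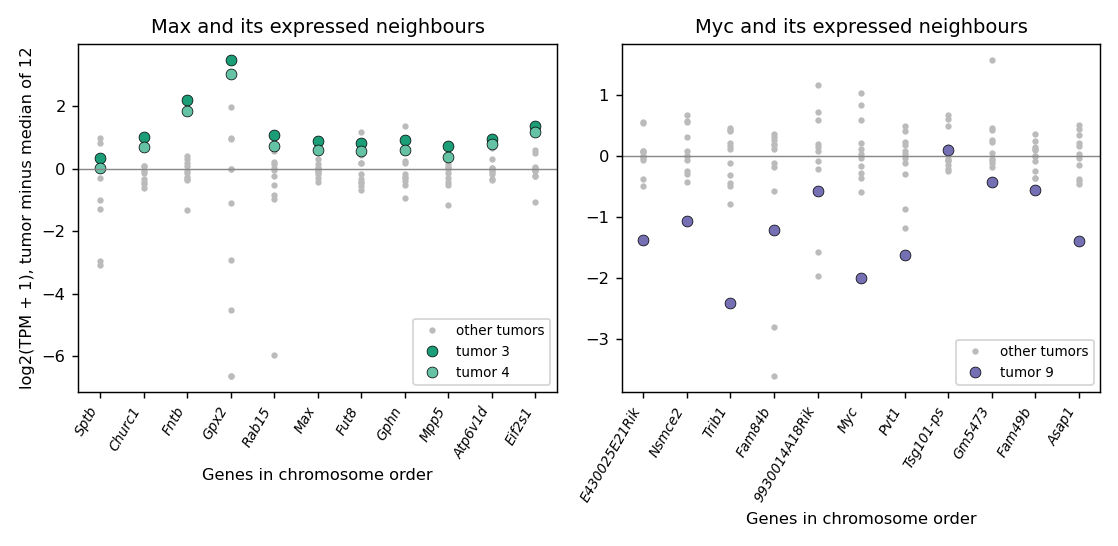
Distance of each tumor from the median of 12 tumors, in log2(TPM + 1) units, for Max (left) and Myc (right) with the 5 expressed genes on either side in chromosome order. Tumors 3 and 4 lie above the median in every gene around Max, by a median of 0.98 and 0.72, and tumor 9 lies below it in 9 of the 10 neighbors of Myc.

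The neighbors of the other members that stood apart were read in the same way, and those of Mxd4, Mycl, Mxd3, Mxd1 and Mxi1 were chosen after the values were seen. In tumor 2, where Mxd4 was 2.72 above its median on the log2 scale, 5 of its 10 neighbors were above theirs, with a median distance of 0.03. In tumor 9, the 10 neighbors of Mycl had a median distance of -0.42 while Mycl stood at 2.23, and 1 of the 10 neighbors of Mycn, Fam49a, was above its median while Mycn stood at 1.86. In the same tumor, 8 of the 10 neighbors of Mxd3 were below their median, with a median distance of -0.27, while Mxd3 stood at -1.37.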

How the data were processed

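RNA of 12 tumors was sequenced by the authors as stranded mRNA libraries with paired-end reads. Per the paper's methods, adapters were trimmed with fastq-mcf, reads were aligned with HISAT2 to the GRCm38 transcriptome, and StringTie 2.1.6 gave the deposited TPM values, 1 per gene and tumor, without pooling. TPM is relative and keeps no read number, so the depth behind each value is unknown and counting error could not be estimated. The TPM of a tumor summed to 999770 at the lowest and 999909 at the highest.

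The scale of analysis was log2(TPM + 1), on which changes of low genes are understated, after averaging tumors of 1 mouse. Genes that averaged 1 TPM or more over mice were tested with limma 3.58.1 in R 4.3.3 and Benjamini-Hochberg adjustment over all genes. Levels were compared by exact sign-flip permutation and correlations by exact permutation of pairings (Python 3.11.15, numpy 2.4.6, scipy 1.17.1). Both were tested on simulated data. Locations came from GENCODE on GRCm38, which is another annotation release than the authors used, and promoters from RefSeq. The named genes were all members, the 3 genes most like each member, the 3 most abundant genes of each list of targets or cofactors, and 5 expressed neighbors on either side of Myc and Mycn, and other genes were chosen after their values were seen. One gene that this rule names is not reported here. The members and lists were chosen with earlier results of these data known. Alternatives were a pseudocount of 0.1, no filter or a mean of 5 TPM, single tumors as units, rescaling without mitochondrial genes, exact permutation in place of limma, Mki67 alone, and leaving out mice.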

Additional observations from a re-analysis of the deposited data

Results flagged for a closer look

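The highest and lowest mouse of 26 values, namely the levels of the members and the medians of the gene lists as log2(TPM + 1) over 9 mice, were compared with the nearest other mouse by Dixon's ratio. Of these 26 values, 8 passed the 95% critical value, and the share of all expressed genes that would pass was not computed. Tumor 2 was the highest or lowest tumor in 49.6% of all expressed genes, and tumor 9 the lowest in 20.6%. Tumor 9 was the lowest mouse in Myc at 4.35 (nearest mouse 5.77), in ribosome biogenesis genes at 5.17 (nearest 5.76), in nucleotide and polyamine genes at 4.83 (nearest 5.75) and in proliferation genes at 3.88 (nearest 4.90). Tumor 2 was the highest mouse in Mxd4 at 8.53 (nearest 6.13), and the lowest in genes repressed by Myc at 3.24 (nearest 5.20) and in macrophage genes at 4.47 (nearest 6.29). The mouse of tumors 3 and 4 was the highest in Max at 6.78 (nearest 6.19). These values are given without an explanation.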

How the results depend on the processing

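No paired analysis was possible because the 12 tumors form a single group, so no 2 groups share replicate numbers. The test between members was made within mice. Of 45 pairs of members, 34 passed as reported, between 29 and 36 passed under the other settings, and between 32 and 33 when each mouse was left out. The number of genes passing on Myc was 6 as reported, 0 with a pseudocount of 0.1, without the filter, by exact permutation or without tumors 2 and 9, 17 with a mean of 5 TPM or more, 41 with 12 tumors and the mouse as a random block, and 812 without tumors 2 and 8, with a range of 0 to 332 when each mouse was left out. On the proliferation genes it was 0 as reported, 14 without the filter and 95 with the random block. No member passed on either covariate under any setting run. The cause of these changes was not tested. Of the 9 correlations with Myc, 2 had an unadjusted p under 0.05 as reported, 1 did with a pseudocount of 0.1, and 1 to 2 did when each mouse was left out.

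Several slopes and differences changed sign, among them the slopes of Myc and Mycl on proliferation and of Mxd3 on Myc. With the random block, the slope on Myc was 0.12 for Max, -0.14 for Mxd1, -0.054 for Mxi1 and -0.036 for Mga, and on proliferation 0.092 for Mxd1 and -0.023 for Mnt, and with Mki67 alone -0.074 for Mnt. Without tumors 2 and 8, Mxi1 minus Mxd1 was -0.081 and Mxd3 minus Mnt -0.18, and the slope on Myc was -0.018 for Mxd4 and on proliferation 0.13 for Mxd1, -0.44 for Mxd4 and 0.12 for Mxi1. Without tumors 2 and 9, the slope on Myc was -0.67 for Mxd3 and -0.19 for Mxi1, and on proliferation -0.40 for Myc, 0.59 for Mycl and -0.92 for Mxd4. Leaving out each mouse gave ranges across 0. Differences ran from -0.11 to 0.19 for Mxd1 minus Mxd3, -0.13 to 0.15 for Mxd3 minus Mnt, -0.13 to 0.41 for Max minus Mxd4 and -0.060 to 0.069 for Mxi1 minus Mxd1. Slopes on Myc ran from -0.27 to 0.22 for Mxd1, -0.38 to 0.20 for Mnt, -0.12 to 0.096 for Mga, -0.13 to 0.60 for Mxd3 and -0.53 to 0.22 for Mxi1. Slopes on proliferation ran from -0.65 to 0.13 for Mxd1, -0.45 to 0.93 for Mxd4, -0.83 to 0.16 for Mxi1, -0.022 to 0.36 for Max, -0.021 to 0.17 for Mga and -0.33 to 0.29 for Mnt. Correlations with Myc ran from -0.38 to 0.88 for Mxd1, -0.47 to 0.52 for Mnt, -0.18 to 0.28 for Mga, -0.16 to 0.77 for Mxd3 and -0.54 to 0.42 for Mxi1. The mean TPM of every member moved by less than its SD with 12 tumors as units and after rescaling without mitochondrial genes.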
